A study of Mus musculus with 9 samples.

Results

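Mouse epiblast stem cells (EpiSCs) kept in CHIR99021 with XAV939 were compared with EpiSCs kept in FGF2 with activin, on the 3 arrays titled for each culture. The comparison covers the 18413 genes with a probe set of their own outside chromosomes 15, X and Y, of 19938 such genes measured. Genes of those 3 chromosomes stayed in the fit and in the adjustment of p-values, and are counted apart. Both EpiSC groups are of strain CD1. The first was grown with the GSK3 inhibitor CHIR99021 (3 µM) and the tankyrase inhibitor XAV939 (2 µM), and the second with activin (10 ng/ml) and fibroblast growth factor FGF2 (10 ng/ml). Embryonic stem cells (ESCs) of strain 129 in 2i, which is CHIR99021 (3 µM) with the MEK inhibitor PD0325901 (1 µM), were on 3 further arrays and serve here as a level to compare with. The labels list the doses for all samples together and give 1 basal medium with 10% fetal bovine serum for every group, so serum factors were present in both EpiSC cultures. All values are log2 expression, 1 per gene and array, so a difference of 1 is 2-fold, and differences are CHIR/XAV minus FGF2/activin throughout.

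EpiSCs correspond to the epiblast shortly before gastrulation, a pluripotent epithelium that depends on Nodal or activin and on FGF. Activin and Nodal bind type I and type II serine kinase receptors, of which Nodal also needs the co-receptor Cripto (Tdgf1), and act through Smad2 and Smad3. Nodal itself, its antagonists Lefty1 and Lefty2 and the T-box factor gene Eomes are classic targets. FGF signals through receptor tyrosine kinases to ERK, which induces immediate early genes and feedback inhibitors of the Sprouty, Spred and Dusp families. In the absence of Wnt, a complex of Axin, APC, GSK3 and casein kinase marks beta-catenin for destruction. CHIR99021 blocks the kinase step and stabilises beta-catenin, whereas XAV939 blocks tankyrase and stabilises Axin, so that beta-catenin is held largely in the cytoplasm. Neither inhibitor supplies a ligand of the activin or FGF receptors.

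Both groups carried the marks of primed cells. Pou5f1 (Oct4), a core pluripotency factor, was at 11.58, 11.61 and 11.58 in CHIR/XAV EpiSCs and at 11.69, 11.72 and 11.62 in FGF2/activin EpiSCs, a difference of -0.09 that was not called (SE 0.06, adjusted p = 0.291). Fgf5, a marker of the primed epiblast, averaged 8.86 and 8.88, against 5.25 in ESCs. The naive genes Zfp42, Esrrb and Klf4 averaged 5.45, 4.93 and 5.13 in CHIR/XAV and 5.34, 4.72 and 5.34 in FGF2/activin EpiSCs, against 8.53, 10.08 and 6.88 in ESCs. The tissue label given to all samples is embryonic stem cell.

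The groups differ in more than the medium. Xist, the RNA of the inactive X chromosome, was at 8.90, 9.02 and 9.45 in CHIR/XAV EpiSCs and at 4.39, 4.45 and 4.31 in FGF2/activin EpiSCs. The Y-linked genes Eif2s3y and Uty went the other way, averaging 4.41 and 4.28 against 9.61 and 9.37. The cultures thus carry the expression marks of opposite sexes, the labels name no line, and medium and line cannot be told apart in any value below. Over the 474 brighter genes of chromosome 15 the median difference was 0.20, against -0.10 to -0.01 on the other autosomes. Pearson correlations across 19938 genes, which are not independent replicates, were 0.996 to 0.998 between arrays of 1 group and 0.972 to 0.975 between the groups. Array medians lay between 5.57 and 5.65.

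At a Benjamini-Hochberg adjusted p under 0.05 in limma, which is what "called" means here, 7573 of the 18413 genes (41.1%) were called, 3638 higher (19.8%) and 3935 lower (21.4%) in CHIR/XAV EpiSCs. Most calls were small, and 6866 of them (90.7%) were under 2-fold. The 707 called genes that reached 2-fold (3.84%) were 265 higher (1.44%) and 442 lower (2.40%). With chromosomes 15, X and Y included, 8300 of 19938 genes (41.6%) were called. The median difference over all 18413 genes was 0.04, and the 3 values of one group all lay above those of the other in 9489 genes (51.5%). Since so many genes were called, the counts of each gene group below are to be read against these shares over all genes, 19.8% higher and 21.4% lower at any size and 1.44% and 2.40% at 2-fold. The members of the groups were chosen with earlier results of these data known. A share above those of all genes is therefore a description and not independent support. A limma treat test against a difference of 1.5-fold called 362 genes higher and 656 lower.

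**Figure D1:**
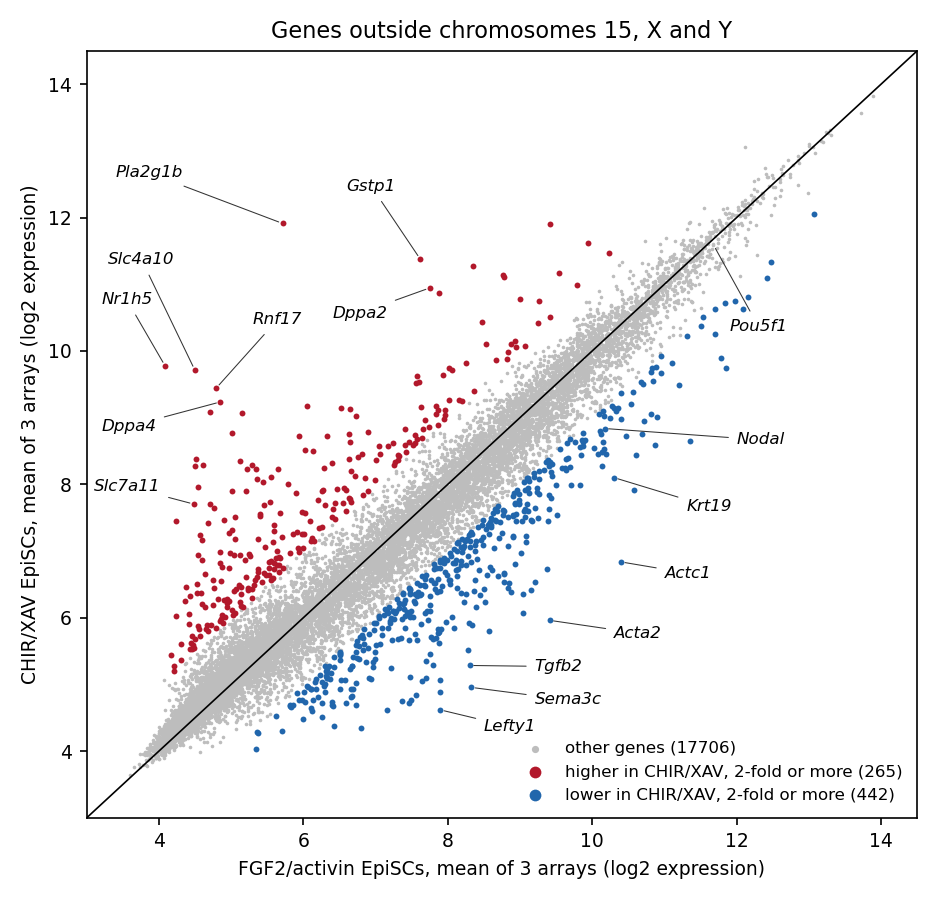
Mean log2 expression of 18413 genes in FGF2/activin EpiSCs (x axis) and CHIR/XAV EpiSCs (y axis), each over 3 arrays, with the 265 genes higher in CHIR/XAV at 2-fold or more in red, the 442 lower in blue and all other genes in grey. Pla2g1b, Nr1h5 and Slc4a10 lie farthest above the line of equal expression and Actc1, Acta2 and Sema3c farthest below it, while Pou5f1 lies on it.

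Pla2g1b, a secreted phospholipase A2 gene known from the pancreas, had the largest difference. It was at 11.90, 11.95 and 11.88 in CHIR/XAV EpiSCs and at 5.71, 5.65 and 5.78 in FGF2/activin EpiSCs, a difference of 6.20 (SE 0.07, adjusted p = 9.15e-16), or 73.4-fold. ESCs, at 12.06, were close to the CHIR/XAV level. Nr1h5, which encodes an FXR-related nuclear receptor, was at 9.66, 9.79 and 9.88 against 4.12, 4.03 and 4.12, and ESCs were at 4.19. Slc4a10, a bicarbonate transporter gene, differed by 5.22 and was likewise low in ESCs, at 4.70. Rnf17, a Tudor-domain gene of male germ cells, differed by 4.65, Dppa4 by 4.38, Nqo1 by 3.91, Rad21l by 3.86, Trim25 and Gstp1 by 3.76 each, Sycp3 by 3.75, the lipase gene Lipo3 by 3.68 and Pcbd1, a pterin dehydratase gene, by 3.42. These 12 and the next 12 were taken from called genes whose groups do not overlap, so the lack of overlap is not a finding.

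The 12 largest differences in the other direction held 4 genes of the contractile apparatus and 2 of the TGF-beta superfamily. Actc1 (-3.56), Acta2 (-3.45), Tagln (-2.77) and Acta1 (-2.73) encode actins and the actin-binding protein transgelin. Sema3c, a secreted semaphorin gene, was at 4.99, 4.96 and 4.92 in CHIR/XAV EpiSCs against 8.30, 8.35 and 8.33, a difference of -3.37 (SE 0.06, adjusted p = 9.39e-14). Lefty1 (-3.28), Tgfb2 (-3.02), the caveolin gene Cav1 (-3.01), the anoctamin gene Ano3 (-2.97), Crct1 (-2.83), Trim67 (-2.76) and Lrrc61 (-2.74) complete them.

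Genes of the Nodal and activin pathway were mostly lower in CHIR/XAV EpiSCs. Of 36 measured members 9 (25%) were lower at 2-fold or more and 1 higher, against 2.40% and 1.44% of all genes. At any size 19 were lower, 4 higher and 13 not called, with a median difference of -0.24 against 0.04 over all genes. The ligands went both ways. Nodal was at 8.80, 8.81 and 8.90 in CHIR/XAV EpiSCs and at 10.16, 10.23 and 10.12 in FGF2/activin EpiSCs, a difference of -1.33 (SE 0.06, adjusted p = 9.41e-10), with ESCs at 8.87. The groups did not overlap, and the CHIR/XAV arrays sat at the ESC level. Tgfb2, a TGF-beta ligand gene, was at 5.31, 5.34 and 5.21 against 8.15, 8.38 and 8.38, a difference of -3.02 (SE 0.08). Inhba, which encodes the subunit of activin A, differed by -0.77, while Gdf3, a ligand that also uses Cripto, was higher by 1.31 (SE 0.09, adjusted p = 3.36e-08) and Inhbb by 0.28. Tgfb1 was not called.

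On the receptor side of the pathway some genes were lower and others were not called. Tdgf1 (Cripto), the Nodal co-receptor, was at 11.25, 11.41 and 11.34 against 12.45, 12.50 and 12.49, a difference of -1.15 (SE 0.07, adjusted p = 6.78e-09). Both cultures were above the 9.98 of ESCs. Furin, a convertase that processes the Nodal precursor, differed by -1.0 (SE 0.07), and the other co-receptor and the other convertase of the list were not called. Of 5 measured receptors Tgfbr2 (-0.66) and Acvr2a (-0.53) were lower, and Tgfbr1 (-0.09), Acvr2b (-0.08) and Acvr1c were not called, and the median over the 5 was -0.09, or 0.04 after quantile normalization. The receptor-activated transducers Smad3 (-0.59) and Smad2 (-0.31) were lower, and their partner Smad4 differed by -0.12, which was not called (adjusted p = 0.155).

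Of 11 measured inhibitors of the pathway 7 were lower and 1 was higher. Lefty1, a Nodal antagonist that Nodal signalling induces, was at 4.70, 4.83 and 4.32 in CHIR/XAV EpiSCs and at 7.98, 7.96 and 7.75 in FGF2/activin EpiSCs, a difference of -3.28 (SE 0.11, adjusted p = 3.98e-11). Its relative Lefty2 was at 4.93, 4.94 and 4.58 against 6.29, 6.24 and 6.08, and differed by -1.39 (SE 0.11). ESCs held the highest levels of both, at 8.99 and 8.54, so the order for these antagonists was ESCs, then FGF2/activin EpiSCs, then CHIR/XAV EpiSCs. Pmepa1, a Smad-induced inhibitor, differed by -1.76 (SE 0.07) and sat near the ESC level of 8.88 in CHIR/XAV EpiSCs, at 8.95. Tmeff1 (-0.76), the activin-binding follistatin gene Fst (-0.73), Skil (-0.27) and Smad7 (-0.22) were lower, and Fstl3, another follistatin-like gene, was higher by 0.53. After quantile normalization Smad7 differed by -0.08.

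Among 7 targets Eomes was at 7.56, 7.26 and 7.48 against 8.71, 8.73 and 8.71, a difference of -1.28 (SE 0.10, adjusted p = 1.03e-07), and Ldb2 differed by -1.19 (SE 0.07). Id1, which is also counted below as a BMP target, was lower by a smaller step (-0.32) and was not called after quantile normalization. The streak gene Mixl1 was higher by 0.43, at a mean of 5.73 against 5.29, and Gsc (0.01) and Foxa2 and Lhx1 were not called. Cer1, a secreted Nodal inhibitor of the endoderm, was dim in both cultures, at 4.30 and 4.11. Of the 4 higher members only Gdf3 passed 2-fold.

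More FGF and ERK response genes were lower than higher. Of 24 measured targets 2 were lower (8.33%) and 0 higher at 2-fold in CHIR/XAV EpiSCs, and at any size 12 were lower (50%, against 21.4% of all genes) and 2 higher (8.33%, against 19.8%), with a median difference of -0.24. Of the immediate early and induced genes 9 of 14 were lower and 1 higher, and of the feedback inhibitors 3 of 10 were lower (30.0%) and 1 higher. The difference between these kinds was not tested. Phlda1, a growth-factor-induced gene, was at 6.76, 6.53 and 6.85 against 8.66, 8.64 and 8.56, a difference of -1.91 (SE 0.08, adjusted p = 3.92e-10). The early zinc finger gene Egr1 was at 6.14, 6.06 and 6.01 against 7.28, 7.11 and 7.13, a difference of -1.10 (SE 0.07). In both genes ESCs, which grow with the MEK inhibitor, lay lower still, at 5.55 and 4.60. Ier3 (-0.73), Fosl1 (-0.62) and Fos (-0.60) were lower as well.

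Several feedback phosphatases and Ets factors of ERK signalling were not called. Dusp6, an ERK phosphatase gene, was at 10.06, 10.09 and 10.17 in CHIR/XAV EpiSCs and at 10.24, 10.31 and 10.16 in FGF2/activin EpiSCs, a difference of -0.13 (SE 0.07, adjusted p = 0.127). The groups overlapped, and both lay far above the 5.99 of ESCs. Dusp4 (-0.05), Spry2 (-0.07) and Etv4 (-0.08) were not called either. Spry4, a Sprouty inhibitor, differed by -0.79 (SE 0.10, adjusted p = 1.37e-05), whereas Spry1 was higher by 0.27 and the Ets factor gene Etv5 by 0.30. Fgfr1, an FGF receptor gene of the epiblast, averaged 9.58 against 10.06, a difference of -0.48 (SE 0.06), and Fgfr2 differed by -0.72. Of 15 FGF-related ligand genes 6 were higher and 1 lower, against 19.8% and 21.4% of all genes, and none reached 2-fold, with Fgf15 the most changed (0.60). Fgf2 (0.13), Fgf4 (0.19) and Fgf5 (-0.02) were not called, and Fgf8 differed by -0.22.

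Of 25 measured Wnt and beta-catenin targets 1 (4.0%) was lower and 0 higher at 2-fold, against 2.40% and 1.44% of all genes. At any size 6 were higher (24.0%) and 9 lower (36.0%), where 19.8% and 21.4% of all genes were, with a median difference of -0.06. The higher share and the share at 2-fold are near those over all genes. Without FGF2/activin replicate 2 only 3 were called higher. Lef1, a nuclear partner of beta-catenin and itself a target, was at 7.92, 7.93 and 8.09 in CHIR/XAV EpiSCs and at 7.27, 7.27 and 7.14 in FGF2/activin EpiSCs, a difference of 0.75 (SE 0.07, adjusted p = 1.24e-06). The receptor gene Fzd7 (0.54) and the feedback inhibitor Nkd1 (0.48) were also higher. The adhesion receptor gene Cd44 was lower by the most (-1.28), followed by Sp5 (-0.99), Id2 (-0.87) and the ubiquitin ligase gene Rnf43 (-0.54). Axin2, the feedback target most used as a readout, was at 7.32, 7.36 and 7.40 against 7.53, 7.50 and 7.65. Its groups did not overlap, yet the difference of -0.20 was not called (SE 0.08, adjusted p = 0.0621), and both lay below the 8.37 of ESCs. Lgr5, a Wnt-potentiating receptor gene, averaged 7.69 against 7.50 with overlapping groups (adjusted p = 0.0826), and after quantile normalization its difference was 0.35.

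A list of 20 genes joined the destruction complex, on which both inhibitors act, with tankyrase genes and 10 effectors such as beta-catenin and the TCF factors. Of the 20, 1 was higher (5.0%) and 9 lower (45.0%), against 19.8% and 21.4% of all genes. The effectors held 5 of the lower, the higher one and the only one at 2-fold. None of the 3 scaffolds was called, with Axin1 at -0.06 and Apc at -0.07, and 2 of 4 kinases were lower. Gsk3b, a target of CHIR99021, was lower by 0.32 on the log2 scale in CHIR/XAV EpiSCs (SE 0.06), while Gsk3a differed by 0.11 and was not called. Of the tankyrase genes, which XAV939 targets, Tnks2 differed by -0.27 and Tnks by 0.17, the second not called, and Rnf146, the ubiquitin ligase that acts with tankyrase on Axin, differed by -0.54. Ctnnb1, which encodes beta-catenin, differed by -0.16 (adjusted p = 0.0499). The TCF factors diverged, with Tcf7l2 at 7.47, 7.51 and 7.58 against 8.98, 8.86 and 8.89, a difference of -1.39 (SE 0.07, adjusted p = 1.73e-09), and the repressor Tcf7l1 higher by 0.32. After quantile normalization 4 members were called higher and 6 lower.

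Of 36 Wnt ligand and receptor genes 1 (2.78%) was higher and 4 (11.1%) lower at 2-fold, against 1.44% and 2.40% of all genes. At any size 11 were higher (30.6%) and 9 lower (25%), not far from the 19.8% and 21.4% of all genes. Wnt3, the ligand of the primitive streak, was at 6.49, 6.42 and 6.37 against 7.84, 8.05 and 7.57, a difference of -1.39 (SE 0.10, adjusted p = 1.04e-07). Wnt4 (-1.07) and the receptor genes Fzd10 (-1.39) and Fzd1 (-1.02) were the other members lower by 2-fold. Of 7 secreted antagonists 4 were higher and 0 lower. Sfrp2, which encodes a secreted Wnt-binding protein, was at 8.50, 8.69 and 8.64 against 7.07, 7.30 and 7.36, a difference of 1.37 (SE 0.08), and its relative Sfrp1 was higher by 0.57.

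**Figure D2:**
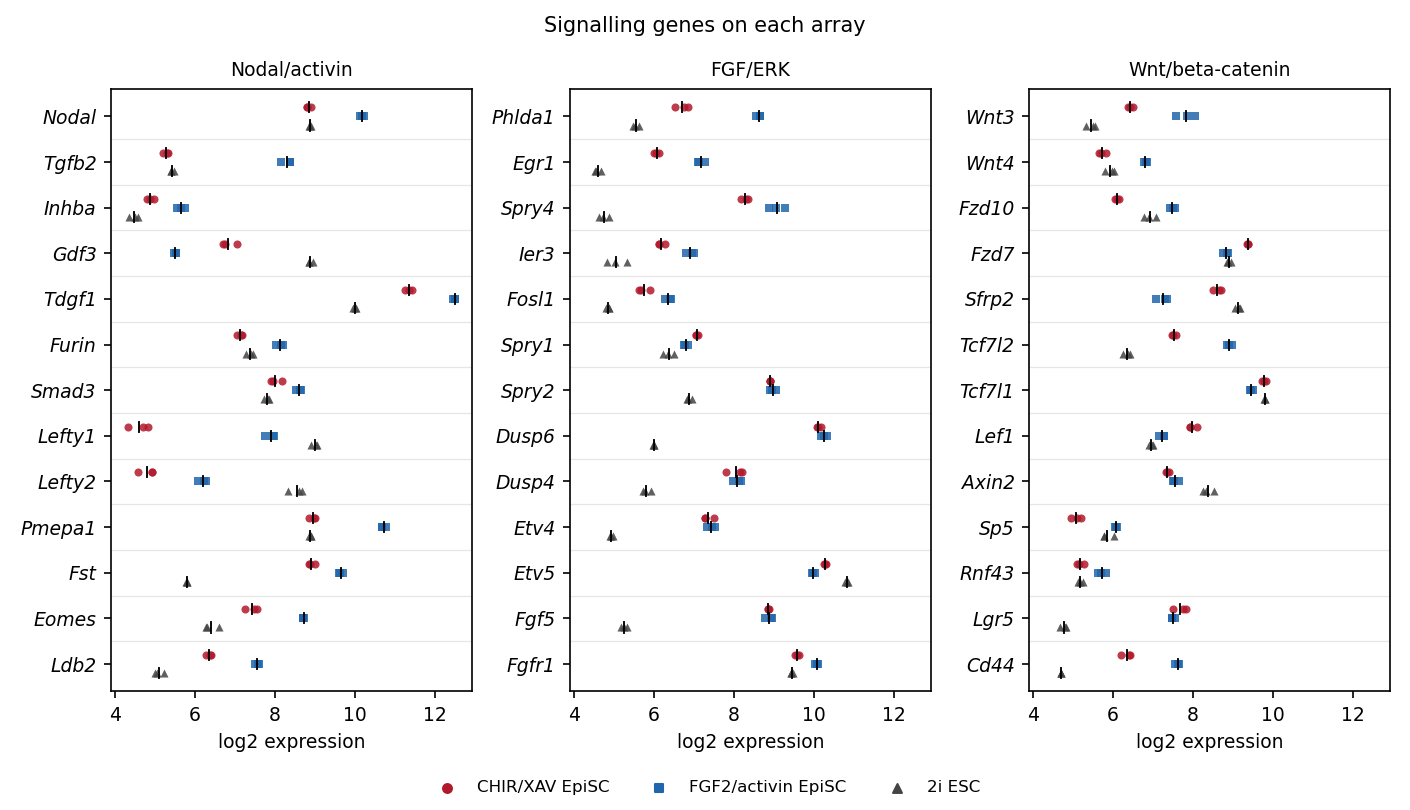
Log2 expression (x axis) of Nodal/activin, FGF/ERK and Wnt/beta-catenin genes on each of 3 CHIR/XAV EpiSC arrays (red circles), 3 FGF2/activin EpiSC arrays (blue squares) and 3 ESC arrays (dark triangles), with short bars at group means. Nodal, Tgfb2, Lefty1 and Pmepa1 were lower in CHIR/XAV EpiSCs on every array, Gdf3 and Lef1 higher, and the groups overlapped for Dusp6, Dusp4, Etv4 and Fgf5.

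In the BMP pathway 1 of 34 genes was higher and 2 lower at 2-fold, and at any size 9 were higher (26.5%) and 16 lower (47.1%), against 19.8% and 21.4% of all genes. Of 5 receptor genes 2 were higher and 2 lower. Eng (endoglin), a co-receptor of BMP and TGF-beta ligands, was at 8.07, 8.08 and 8.07 in CHIR/XAV EpiSCs against 5.35, 5.41 and 5.30, a difference of 2.72 (SE 0.07, adjusted p = 1.43e-12). ESCs were at 8.17. Bmpr2, the type II BMP receptor gene, differed by -1.0 (SE 0.09), just under 2-fold. Bmp1, a procollagen protease gene named with the family, differed by -1.68 and the ligand gene Bmp7 by -1.03, while Bmp4 differed by -0.30. The BMP targets Id1 (-0.32) and Id2 (-0.87) were lower, and Id3 (0.13) was not called.

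**Figure D3:**
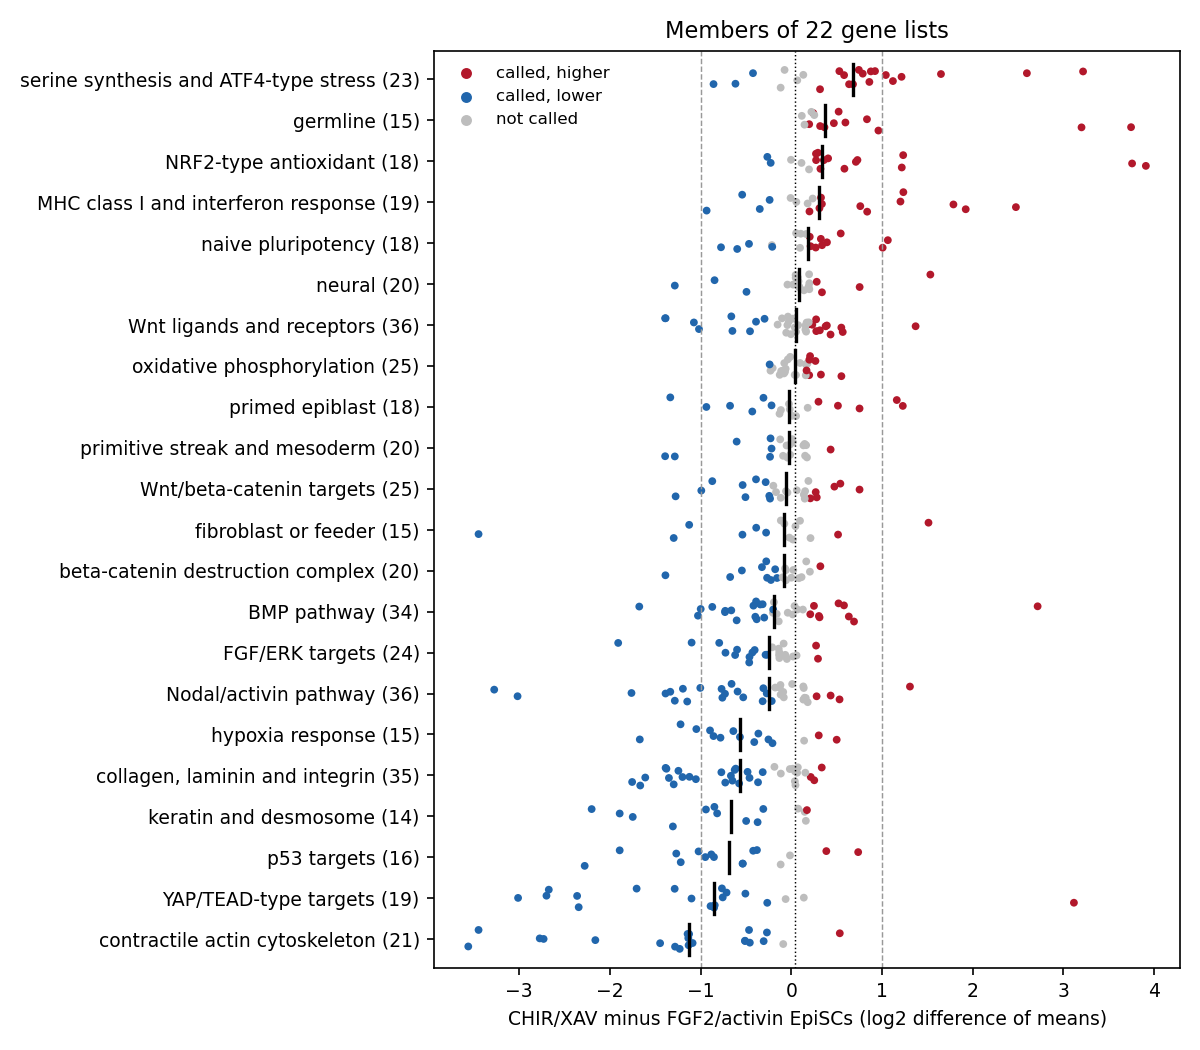
Log2 difference between CHIR/XAV and FGF2/activin EpiSCs (x axis) for each measured member of 22 gene lists outside chromosomes 15, X and Y, with the number of members after each name, called members in red (higher) or blue (lower) and others in grey. Black bars mark list medians, the dotted line the median of all genes (0.04) and dashed lines 2-fold in either direction. The contractile actin list has the lowest median (-1.13) and the serine synthesis and ATF4-type list the highest (0.68).

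Genes of the contractile actin cytoskeleton were lower in CHIR/XAV EpiSCs, and their list had the lowest median of all lists described. Of 21 measured genes 13 (61.9%) were lower at 2-fold or more in CHIR/XAV EpiSCs and 0 higher, against 2.40% and 1.44% of all genes, and at any size 19 were lower and 1 higher. The median difference was -1.13. Actc1, the cardiac alpha-actin gene, was at 6.97, 6.92 and 6.63 against 10.43, 10.41 and 10.35, a difference of -3.56 (SE 0.12, adjusted p = 2.07e-11). Acta2, the smooth muscle alpha-actin gene, was at 5.91, 6.02 and 5.96 against 9.53, 9.43 and 9.27. Acta1, the skeletal muscle form, was at 6.47, 6.47 and 6.32 against 9.15, 9.22 and 9.09. In all 3 genes the groups were separated by more than 2 log2 units. ESCs, at 6.34, 6.98 and 6.54, lay below the FGF2/activin level in all 3 genes. They were below the CHIR/XAV mean of 6.84 for Actc1 and above those of 5.96 for Acta2 and 6.42 for Acta1. Tagln (-2.77) and the caldesmon gene Cald1 (-2.16) followed. The single higher member was the calponin gene Cnn1, at 8.75, 8.86 and 8.94 against 8.36, 8.31 and 8.27 (0.54, SE 0.07), and the leiomodin gene Lmod1 was not called (-0.09).

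Genes of this kind are known targets of serum response factor, which binds the CArG box. RefSeq promoter windows (assembly GRCm38.p6, 250 bases before to 50 after the start) of 14608 of the 18413 genes were searched on both strands for 8 motifs, and a match describes the letters and is not a site. A CArG box stood in a window of 5 of the 19 actin-list genes with one (26.3%), Acta1, Actc1, Myl9, Cnn2 and Vcl, against 1.62% of the 14608 genes. The CArG box was searched as CCWWWWWWGG, where W is A or T, and variants of it were not searched. The window of Acta2 held no match to that pattern. For the other alpha-actin genes the stretches around the CArG box are shown with it in capitals, overlapping none of the other 7 motifs. They are from Actc1 (chr2:114052878-114052957, minus strand) and Acta1 (chr8:123894804-123894883, minus strand).
Actc1: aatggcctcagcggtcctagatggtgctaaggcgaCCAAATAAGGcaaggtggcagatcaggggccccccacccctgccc
Acta1: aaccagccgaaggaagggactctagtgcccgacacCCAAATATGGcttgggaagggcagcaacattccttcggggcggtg

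Targets of the YAP and TEAD transcription factors, which respond to cell shape and tension, were mostly lower as well. Of 19 measured genes 8 (42.1%) were lower at 2-fold or more and 1 higher, at any size 16 were lower and 1 higher, and the median difference was -0.85. Cav1, which encodes the caveolar coat protein, was at 4.70, 4.92 and 5.01 against 7.85, 8.04 and 7.79, a difference of -3.01 (SE 0.09, adjusted p = 1.29e-11). The matrix protein gene Thbs1 (-2.70) and the annexin genes Anxa3 (-2.67) and Anxa1 (-2.36) followed, and the TEAD gene Tead1 itself differed by -1.70. Ccn2 was the opposite. It was at 9.10, 9.29 and 9.12 in CHIR/XAV EpiSCs and at 6.10, 6.22 and 5.84 in FGF2/activin EpiSCs, a difference of 3.12 (SE 0.10, adjusted p = 1.16e-11), whereas its close relative Ccn1 was at 9.06, 9.21 and 9.24 against 10.31, 10.26 and 10.25 (-1.10, SE 0.08). Both encode secreted CCN proteins and both are standard readouts of YAP, yet each separated the groups in its own direction. Tead1 and Ccn1 are named here after their values were seen.

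The TEAD-type letters GGAATG stood in the promoter windows of 9 of 15 YAP/TEAD-list genes (60.0%) and of 9 of 19 actin-list genes (47.4%), against 15.2% of all 14608. Windows of 2 genes show them in capitals as they read on the gene's strand, in reverse complement, for Anxa1 (chr19:20390867-20390921, minus strand) and Ccn1 (chr3:145650048-145650123, minus strand), the matching genes of the list that changed most. No other searched motif overlaps them.
Anxa1: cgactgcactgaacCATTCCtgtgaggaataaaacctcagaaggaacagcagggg
Ccn1: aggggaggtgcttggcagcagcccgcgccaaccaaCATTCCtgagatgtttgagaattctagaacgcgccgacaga

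Many matrix, integrin and desmosome genes were lower. Of 35 collagen, laminin and integrin genes 11 (31.4%) were lower at 2-fold or more and 0 higher, and at any size 22 were lower and 3 higher, with a median difference of -0.57. The proteoglycan gene Vcan was at 8.90, 9.07 and 9.19 against 10.79, 10.85 and 10.78 (-1.75, SE 0.08), and the integrin gene Itga1 (-1.67), the tenascin gene Tnc (-1.61), Itgb4 (-1.39) and the basement membrane gene Nid1 (-1.38) followed. Of 14 keratin and desmosome genes 4 (28.6%) were lower at 2-fold or more and 0 higher. Krt19, a keratin of simple epithelia, was at 8.0, 8.23 and 8.07 against 10.29, 10.37 and 10.25, a difference of -2.20 (SE 0.10, adjusted p = 6.84e-10). The desmosome genes Perp (-1.89), Dsp (-1.75), Dsc2 (-1.31) and Pkp2 (-0.94) were lower as well. The single higher member, Evpl, differed by 0.17, and was not called after quantile normalization.

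Epithelial junction genes went in both directions. Cdh1 (E-cadherin) was at 10.91, 10.87 and 10.85 against 11.33, 11.33 and 11.30, a difference of -0.45 (SE 0.06), and Cdh2 (N-cadherin) was lower too, at 7.40 against 8.24. Of 20 tight junction and epithelial genes 11 were lower (55.0%, against 21.4% of all genes) and 3 higher (15%, against 19.8%). The protease gene St14 (-1.27) and the splicing factor gene Esrp2 (-1.03) were lower by 2-fold, whereas the claudin genes Cldn4 (0.95) and Cldn3 (0.69) and the trafficking gene Rab25 (0.74) were higher. Of 12 genes of mesenchymal transition 5 were lower (41.7%), among them Fn1 (-1.30), Vim (-1.13) and Snai2 (-0.82), and 4 higher (33.3%), led by Tgfbi (1.41). Both lists thus held members of each direction.

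Guidance genes reached 2-fold in both directions. Of 36 semaphorin, ephrin and Eph genes 6 (16.7%) were lower and 3 (8.33%) higher at 2-fold or more, with a median difference of -0.02. Besides Sema3c, the semaphorin receptor gene Nrp2 was at 5.64, 5.76 and 5.73 against 7.71, 7.82 and 7.76 (-2.05, SE 0.08), and the ephrin receptor gene Epha2 differed by -1.46. Sema6d, a membrane semaphorin gene, was at 8.24, 8.21 and 8.23 against 5.59, 5.59 and 5.79, a difference of 2.57 (SE 0.07, adjusted p = 3.53e-12). ESCs were at 4.72 for Sema6d.

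**Figure D4:**
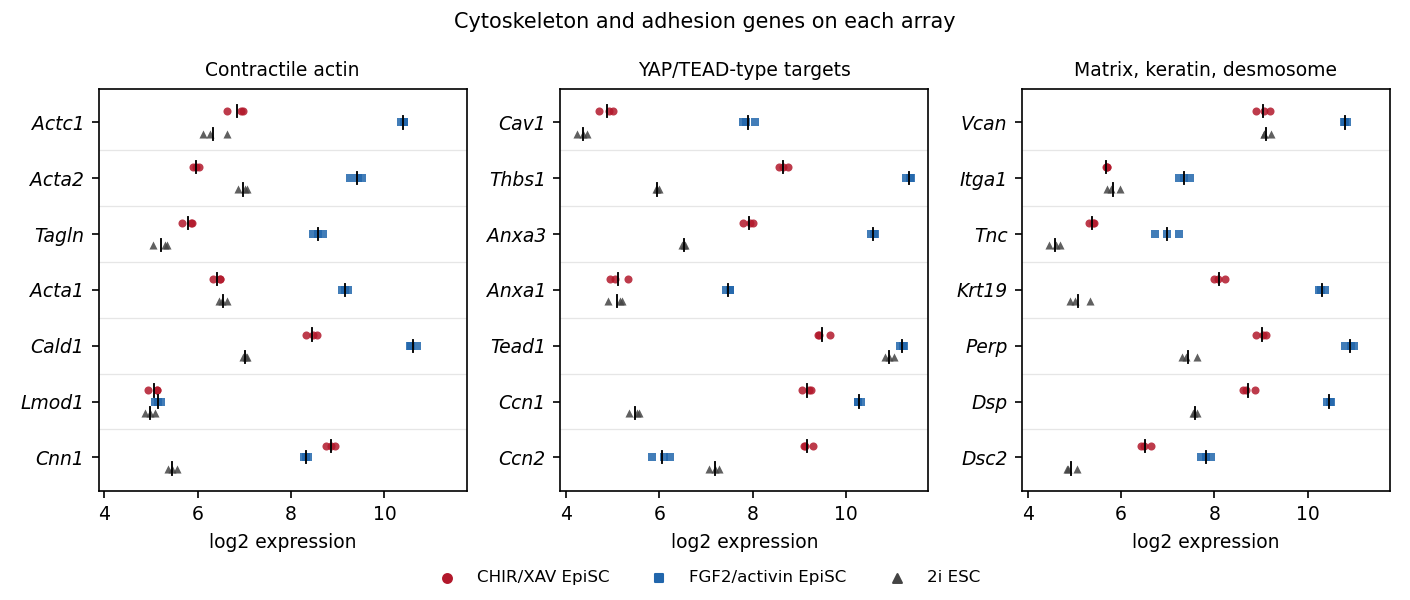
Log2 expression (x axis) of contractile actin genes, YAP/TEAD-type targets and matrix, keratin and desmosome genes on each of 3 CHIR/XAV EpiSC arrays (red circles), 3 FGF2/activin EpiSC arrays (blue squares) and 3 ESC arrays (dark triangles), with short bars at group means. CHIR/XAV arrays lay below FGF2/activin arrays for every gene shown except Cnn1 and Ccn2, which were higher, and Lmod1, whose groups overlapped.

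Actins and matrix genes are also abundant in fibroblasts, which may serve as feeder cells. The summed level of the 15 fibroblast or feeder markers was 88.4 to 88.8 in CHIR/XAV and 93.0 to 93.8 in FGF2/activin EpiSCs, and 6 of the 15 were lower and 2 higher. The 3 lower by 2-fold were Acta2 (-3.45), Fn1 (-1.30) and Vim (-1.13), which the cytoskeleton or mesenchymal lists also hold, and S100a4 (-0.54) and Twist2 (-0.39) were lower too. A subset of 7 markers, chosen from the 15 as the more specific to fibroblasts (Col1a1, Col1a2, Col3a1, Dcn, Lum, Postn and Fap) lay between 4.15 and 5.98 in CHIR/XAV EpiSCs, between 4.0 and 6.11 in FGF2/activin EpiSCs and between 4.17 and 5.98 in ESCs. Of these 7 only Postn was called (-0.28), and the higher members of the list were Thy1 (1.51) and Pdgfrb (0.52). The part of such cells in the values above was not tested. In bulk RNA, fewer cells of a kind and less RNA per cell cannot be told apart.

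Genes that p53 activates, which act in growth arrest and cell death, were lower in CHIR/XAV EpiSCs. Of 16 measured targets 5 (31.2%) were lower at 2-fold or more and 0 higher, and at any size 12 were lower and 2 higher, with a median difference of -0.69. The death receptor gene Tnfrsf10b was at 8.53, 8.58 and 8.65 against 10.87, 10.86 and 10.85, a difference of -2.28 (SE 0.06, adjusted p = 4.56e-12). Perp, which is also a desmosome gene, Gadd45a (-1.27), Pmaip1 (-1.22) and Phlda3 (-1.02) were the others lower by 2-fold or more. Pmaip1 encodes the BH3 protein Noxa. Sesn1 (0.74) and Fas (0.39) were the members that were higher. Mdm2, the p53 ubiquitin ligase gene, averaged 10.23 against 11.12.

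Most hypoxia-induced genes were lower. Of 15 hypoxia response genes 3 (20%) were lower at 2-fold, and at any size 12 were lower (80.0%, against 21.4% of all genes) and 2 higher, with a median difference of -0.57. The adrenomedullin gene Adm was at 4.60, 4.89 and 4.70 against 6.32, 6.60 and 6.28 (-1.67, SE 0.09), and the oxygen sensor gene Egln1 (-1.22) and the prolyl hydroxylase gene P4ha1 (-1.05) followed. Egln3 (0.50) and Lox (0.30) were higher. Of 19 glycolysis genes 8 were lower (42.1%) and 2 higher (10.5%). Pfkfb3, which makes the allosteric activator of phosphofructokinase, was at 6.44, 6.62 and 6.54 against 8.79, 8.80 and 8.73 (-2.24, SE 0.08), and Ldhb differed by -1.20, the glucose transporter gene Slc2a3 by -0.92 and Hk2 by -0.71. Ldha and Pkm were not called. Of 25 genes of oxidative phosphorylation 7 were higher (28.0%, against 19.8% of all genes) and 1 lower, none by 2-fold, and 11 were higher and 0 lower after quantile normalization.

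Genes of the germline were higher in CHIR/XAV EpiSCs, a few of them by a wide margin. Of 15 measured germline genes 11 were higher (73.3%, against 19.8% of all genes) and 0 lower (8 and 0 after quantile normalization), but 2 (13.3%) reached 2-fold, against 1.44% of all genes, and the median difference was 0.37. Sycp3, a component of the synaptonemal complex of meiosis, was at 8.87, 8.78 and 8.64 against 5.16, 4.90 and 4.98, a difference of 3.75 (SE 0.08, adjusted p = 4.21e-13). Mael, a gene of the piRNA pathway that silences transposons, was at 7.36, 7.52 and 7.46 against 4.29, 4.16 and 4.28 (3.20, SE 0.07). Both were near the ESC levels of 9.02 and 7.66 in CHIR/XAV EpiSCs. The piRNA gene Tdrd1 (0.96) and the transcription factor gene Dmrt1 (0.83) changed less, and Ddx4 (0.32) and Dazl (0.24), defining genes of germ cells, averaged 5.08 and 5.18 in CHIR/XAV EpiSCs against 7.61 and 7.68 in ESCs. Hormad1, a meiotic chromosome axis gene, was not called (0.25).

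Rnf17 and Rad21l, germ cell genes outside that list, were among the 12 largest differences and are described for that reason. Rnf17 was at 9.41, 9.46 and 9.46 against 4.78, 4.73 and 4.87 and exceeded the ESC mean of 7.93. Rad21l, which encodes a cohesin subunit of meiosis, was at 8.41, 8.25 and 8.46 against 4.58, 4.36 and 4.60, with ESCs at 4.89. Stag3 (2.24) and M1ap (2.66), further meiosis genes named after their values were seen, were also higher. Dppa4 and Dppa2, neighbouring genes for a pair of chromatin factors of pluripotent and germ cells, moved together. Dppa4 was at 9.18, 9.29 and 9.23 against 4.94, 4.77 and 4.84, a difference of 4.38 (SE 0.08, adjusted p = 3.57e-14), and Dppa2 at 10.98, 11 and 10.85 against 7.85, 7.71 and 7.69, a difference of 3.19 (SE 0.07). ESCs were at 8.97 and 11.31. A second probe set of each gene differed by 3.57 (Dppa4), 3.80 (Dppa2) and 2.66 (Rad21l).

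The E-box CACGTG, a motif known from promoters of germline genes, stood in the promoter windows of 9 of 13 germline genes (69.2%) against 9.45% of all 14608. Of those 9 genes 6 were called, and of all 13 with a window 9 were called. It is shown in capitals in the promoters of the 2 genes that passed 2-fold, Sycp3 (chr10:88459509-88459584, plus strand), which holds 2 copies, and Mael (chr1:166238927-166238994, minus strand). The motif is its own reverse complement, and no other searched motif overlaps it there.
Sycp3: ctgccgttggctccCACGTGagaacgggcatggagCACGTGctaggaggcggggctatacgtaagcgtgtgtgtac
Mael: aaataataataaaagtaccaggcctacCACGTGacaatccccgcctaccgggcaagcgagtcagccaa

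Genes of the DNA methylation machinery went in both directions, 5 of 10 higher, 2 of them by 2-fold, and 4 lower. Dnmt3b, a de novo methyltransferase of the primed epiblast, was at 10.14, 10.10 and 10.08 against 8.87, 8.89 and 8.86, a difference of 1.23 (SE 0.07, adjusted p = 6.63e-09). Its cofactor gene Dnmt3l was at 6.87, 7.03 and 7.0 against 5.08, 5.11 and 4.77 (1.98, SE 0.09). Dnmt3a (-0.43) and the 5-methylcytosine oxidase genes Tet3 (-0.88) and Tet2 (-0.46) were lower, whereas Tet1 was higher by 0.44. Dnmt1, the maintenance enzyme, was not called.

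Genes of amino acid supply and the ATF4 stress response were higher in CHIR/XAV EpiSCs. Of 23 measured genes 6 (26.1%) were higher at 2-fold or more and 0 lower, and at any size 16 were higher and 3 lower, with a median difference of 0.68. Slc7a11, the cystine transporter gene, was at 7.64, 7.85 and 7.61 against 4.48, 4.41 and 4.56, a difference of 3.22 (SE 0.08, adjusted p = 1.12e-12), with ESCs at 5.73. Chac1, a glutathione-degrading enzyme gene, was at 7.95, 7.92 and 8.23 against 5.46, 5.26 and 5.58 (2.60, SE 0.12). The mitochondrial folate enzyme gene Mthfd2 (1.65), the pseudokinase gene Trib3 (1.22), Pck2 (1.12) and the last enzyme gene of serine synthesis, Psph (1.04), were the others above 2-fold. The 3 lower members were Ddit4 (-0.86), Cth (-0.62) and Ddit3 (-0.42). Phgdh, the first enzyme of serine synthesis, was not called (-0.07).

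Antioxidant genes that NRF2 controls were higher alongside them. Of 18 measured genes 4 (22.2%) were higher at 2-fold or more and 0 lower, and at any size 13 were higher and 2 lower (14 and 0 after quantile normalization). Nqo1, a quinone reductase gene and standard NRF2 target, was at 9.10, 9.09 and 9.0 against 5.13, 5.24 and 5.10, a difference of 3.91 (SE 0.07, adjusted p = 3.57e-14), with ESCs at 9.08. Gstp1, a glutathione transferase gene, was at 11.42, 11.40 and 11.31 against 7.64, 7.77 and 7.45. Gclm (1.23) and Gsta4 (1.22), for glutathione synthesis and transfer, were the others above 2-fold, and Srxn1 was higher by 0.73. Hmox1, the heme oxygenase gene and another common NRF2 target, was at a mean of 9.08 against 8.97 with overlapping groups, and was not called (adjusted p = 0.216), though it was after quantile normalization, at 0.23.

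The ATF4-type letters TGATGNAA stood in the promoter windows of 9 of 21 serine and ATF4-list genes (42.9%), against 3.64% of all 14608. Of those 9 genes 8 were called, and of all 21 with a window 17 were called. The antioxidant letters TGACNNNGC stood in 6 of 13 NRF2-list genes, against 15.2%. Windows of the pair of genes with the largest differences show the ATF4-type letters in capitals, on either strand, for Slc7a11 (chr3:50443618-50443695, minus strand), with 2 copies in opposite orientation, and Chac1 (chr2:119351014-119351091, plus strand). No other searched motif overlaps them. The remaining motifs searched were AATNNACA (11.3% of genes), CAGACA (20.8%) and CTTTGAT (3.72%), found in 1 and 5 of 23 Nodal/activin genes and, for the last, in 2 of 17 Wnt targets.
Slc7a11: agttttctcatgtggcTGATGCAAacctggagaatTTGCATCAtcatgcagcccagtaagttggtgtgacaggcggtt
Chac1: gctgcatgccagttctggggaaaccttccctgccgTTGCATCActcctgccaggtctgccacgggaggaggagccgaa

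More genes of the interferon response and MHC class I presentation were higher than lower in CHIR/XAV EpiSCs. Of 19 measured genes of that list 5 (26.3%) were higher at 2-fold or more and 0 lower, and at any size 11 were higher and 4 lower, with a median difference of 0.31. Ifitm3, a membrane protein gene that restricts viral entry and marks early germ cells, was at 11.94, 11.90 and 11.85 against 9.42, 9.41 and 9.43, a difference of 2.48 (SE 0.06, adjusted p = 1.31e-12). Ddx58 (RIG-I), a cytoplasmic RNA sensor, was at 9.44, 9.54 and 9.60 against 7.48, 7.62 and 7.72 (1.92, SE 0.07). Outside the list Trim25, whose product ubiquitinates RIG-I and which is among the 12 largest differences, was at 8.16, 8.36 and 8.28 against 4.48, 4.41 and 4.62. Mavs, the adaptor downstream of RIG-I, is also no member and named after its values were seen. It was at 7.66, 7.45 and 7.48 against 5.36, 5.44 and 5.39 (2.13, SE 0.07). All 4 genes were also well expressed in ESCs, at 10.72, 8.59, 8.73 and 8.67.

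Bst2 (1.79), the immunoproteasome gene Psmb9 (1.24) and the 2',5'-oligoadenylate synthetase-like gene Oasl2 (1.20) were higher too, and ESCs were at 5.76, 5.31 and 5.20. The 4 lower members were Tapbp (-0.93), Irf1 (-0.54), B2m (-0.35) and Tap1 (-0.24), of which 3 serve MHC class I assembly. Tap2, the partner of Tap1 in the peptide transporter, was higher by 0.84. Stat2, Irf9 and Ifit3, which rise with interferon signalling in most cells, were not called, and Irf7 differed by 0.20.

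**Figure D5:**
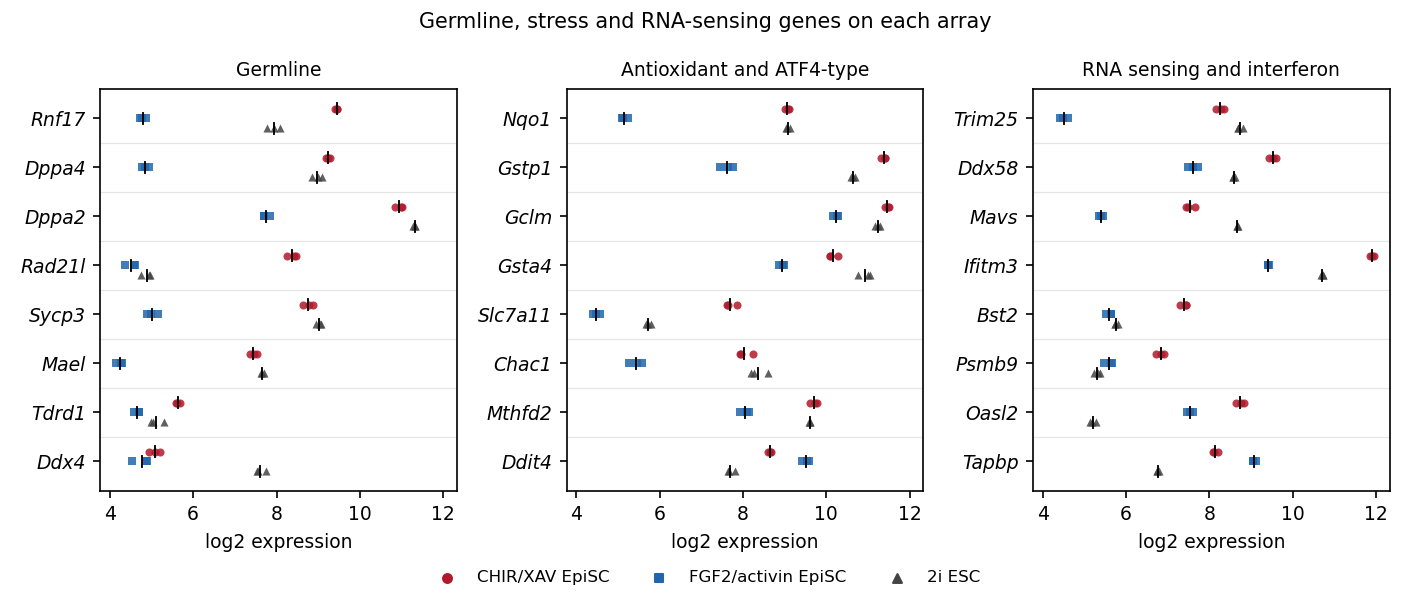
Log2 expression (x axis) of germline, antioxidant and ATF4-type, and RNA-sensing and interferon genes on each of 3 CHIR/XAV EpiSC arrays (red circles), 3 FGF2/activin EpiSC arrays (blue squares) and 3 ESC arrays (dark triangles), with short bars at group means. All genes shown were higher in CHIR/XAV EpiSCs except Ddit4 and Tapbp, and for Dppa4, Sycp3, Mael and Nqo1 the CHIR/XAV arrays lay within 0.5 of the ESC mean.

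Of 12 core pluripotency genes 3 were higher and 4 lower, with Dppa4 and Dppa2 higher and Tdgf1 lower by 2-fold, or 5 higher and 3 lower after quantile normalization. Nanog was at 10.15, 10.33 and 10.28 against 9.79, 9.80 and 9.97, a difference of 0.39 (SE 0.08, adjusted p = 0.000826), and Sox2 averaged 11.03 against 11.32 (-0.30, SE 0.08). Otx2, a homeobox factor of the primed epiblast, averaged 9.10 against 9.41 (-0.31), and its difference was -0.22 after quantile normalization. Of 18 naive genes 9 were higher (50%, against 19.8% of all genes) and 4 lower (22.2%, against 21.4%), or 6 and 4 after quantile normalization. The 2 that reached 2-fold were Dppa3 (1.07) and Dppa5a (1.01), at means of 5.28 and 6.30 against 8.34 and 13.01 in ESCs, and a second probe set of Dppa3 differed by 0.27. The summed level of the naive list was 107.9 to 108.3 in CHIR/XAV, 104.9 to 106.0 in FGF2/activin EpiSCs and 166.8 to 167.4 in ESCs. Of 18 primed epiblast genes 5 were higher (27.8%) and 6 lower (33.3%), with Dnmt3b and the carbonic anhydrase gene Car14 (1.16) higher and Nodal lower by 2-fold.

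The lists of differentiated cell types had mean levels of 5.24 to 6.31 on the EpiSC arrays, where the median over genes was 5.81 in CHIR/XAV and 5.78 in FGF2/activin EpiSCs. Members above 7 numbered 4 of 20 neural markers in CHIR/XAV and 5 in FGF2/activin EpiSCs, 3 of 16 extraembryonic endoderm markers in both, and 2 and 3 of 10 trophoblast markers. Of 20 primitive streak and mesoderm genes 6 were lower (30.0%, against 21.4% of all genes) and 1 higher. The 2 lower by 2-fold or more were Wnt3 and Eomes, described above. Of 10 trophoblast genes 6 were lower (60.0%) and 0 higher, among them Tfap2c (-1.19) and Eomes. Of 20 neural genes 4 were higher (20%) and 3 lower (15%), near the 19.8% and 21.4% of all genes, with the lipid-binding protein gene Fabp7 higher by 1.53 and the intermediate filament gene Nes lower (-1.28). Of 11 definitive endoderm genes 3 were lower (27.3%) and 2 higher (18.2%), near the shares of all genes. After quantile normalization these counts were 3 and 1. Trh, a peptide hormone gene of that list, differed by -2.23. Of 16 extraembryonic endoderm genes 6 were lower (37.5%) and 5 higher (31.2%), or 6 and 2 after quantile normalization. There the endocytic receptor gene Cubn differed by -1.52 and Sparc by -1.35. Among 9 neural crest genes 4 were lower (44.4%) and 0 higher, none by 2-fold.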

How the data were processed

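Total RNA of mouse EpiSCs in 2 media and of ESCs was measured on 9 single-colour Affymetrix Mouse Gene 1.0 ST arrays, 3 per group. The values of each probe set were deposited on the log2 scale after RMA in Partek, as the submitters' processing notes name them. The software version and the set of arrays normalized jointly are not given in the sources used. The values ran from 3.05 to 14.34. No detection calls entered, so dim signal and background were not separated, and folds against dim groups can be understated.

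Among 35399 probe sets, the 21789 with a single gene symbol were used, and the 1621 with several symbols and 11989 with none were not. Current symbols came from RefSeq genes of GRCm38.p6, where 19919 of 19938 genes were found. For 999 genes with more than 1 probe set the one with the highest mean was kept. The 1503 genes on chromosomes 15, X and Y, and 22 without a chromosome, were left out of the counts.

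Differences were fitted with limma 3.58.1 in R 4.3.3 (lmFit, eBayes), with all 9 arrays in 1 fit with no covariates or filter, and Benjamini-Hochberg adjusted over 19938 genes. The threshold was an adjusted p of 0.05, and without adjustment 9059 of the 18413 genes had a p under 0.05. The labels do not say whether replicate arrays stem from separate cultures. The p-values therefore reflect only array-to-array spread, possibly technical, and precision is limited by 3 arrays per group. On simulated data the fit recovered 84.6% of 52 genes changed by 0.5 and 100% of the 72 and 76 changed by 1 and 2 log2 units, with 6 false calls among 198, in 19938 genes. The simulated noise was independent between genes and arrays, and far fewer genes were changed than the 7573 called here. The simulation therefore gives no error rate for those calls.

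The members of the 51 gene lists (971 genes, of which 893 were measured and 838 lie outside chromosomes 15, X and Y) and the genes shown were chosen with earlier results of these data known. The text names the 12 largest differences each way among called genes whose groups do not overlap, without predicted, clone and Rik names. It adds Pou5f1, Sox2, Nanog, Cdh1, Cdh2, Otx2 and Dnmt3b, any member of the Nodal, Wnt, FGF and BMP lists, and up to 5 members of each other list with the largest called change, with members not called where a role needs them. Genes outside this rule are marked, stand in a count of 5 or fewer, hold a motif, or are Xist and Y-linked genes, given as a check of the lines. Mdm2, Psph, Tet1, Ddx4, Dazl, Tap2 and Irf7 were named after their values were seen. Lists are described by counts and medians, without a test of the list. Motifs were searched in RefSeq promoter windows with Python 3.11.15. Alternatives were the mean of probe sets, a filter on dim genes, trend and robust variance, the 6 EpiSC arrays alone, median centring, quantile normalization, array weights, a replicate block, each array left out and a treat test.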

Additional observations from a re-analysis of the deposited data

How the results depend on the processing

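Counts of all genes and of the Nodal/activin, FGF/ERK and Wnt target lists moved by at most 1.5 times in every alternative run, except as named here, and no named gene reversed while called. Against 1.5-fold the treat test called 1018 genes, 362 higher and 656 lower, because its threshold is a size. Leaving out 1 array gave 6280 to 7679 called genes, 2848 to 3723 higher and 3425 to 3956 lower. At 2-fold it gave 686 to 731 genes, 261 to 276 higher and 425 to 470 lower. It gave 18 to 20 lower and 3 to 5 higher Nodal/activin genes, 12 to 13 lower and 2 higher FGF/ERK targets, and 7 to 10 lower and 3 to 6 higher Wnt targets, the 3 without FGF2/activin replicate 2. Samples with the same replicate number did not deviate together (correlations of -0.006, 0.071 and -0.071, against -0.078 to 0.08 for different numbers). These values showed no pairing by number, but 3 arrays per group cannot exclude it. With the replicate number as a block 3610 genes were higher and 3907 lower, 265 and 442 of them at 2-fold. Of 267 named genes outside chromosomes 15, X and Y, quantile normalization changed the call of the most, 14 lost and 9 gained: Bmp4, Ctnnb1, Dazl, Ddx4, Esrrb, Evpl, Fgf8, Id1, Inhbb, Irf7, Myl9, Otx2, Smad7 and Tap1 lost it, and Fgf4, Gsk3a, Hmox1, Id3, Klf4, Lgr5, Lmod1, Stat2 and Tnks gained it. Axin2 was called lower after median centring, without the dimmest genes, in the 6 EpiSC arrays alone, with array weights, with the replicate block and without ESC replicate 3. The 130 named genes called at 2-fold or more kept call and direction in all 19 settings in which they were refitted. Many of them were named for the size of their called differences in these same arrays, so this follows in part from the choice.

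The other lists were recounted only after median centring and quantile normalization. After quantile normalization counts of higher genes moved by over 1.5 times in several lists. Those of the destruction complex and effectors (1 to 4), core pluripotency (3 to 5) and Polycomb (4 to 7) rose. So did those of G1 cell cycle (2 to 4), oxidative phosphorylation (7 to 11) and YAP/TEAD-type targets (1 to 2). EGF family and housekeeping counts rose from 1 to 2 each. Extraembryonic endoderm (5 to 2), Hox (6 to 2) and keratin and desmosome counts (1 to 0) fell. Definitive endoderm and BCL2 family counts fell from 2 to 1 each. Counts of lower genes fell in hedgehog (4 to 2), antioxidant (2 to 0) and oxidative phosphorylation genes (1 to 0). They also fell in Polycomb and in S phase and mitosis genes (5 to 3 each). Lower microRNA (0 to 2) and Hox genes (0 to 1) rose in number. Median centring moved higher definitive endoderm and BCL2 family genes (2 to 1 each) and keratin and EGF family genes (1 to 0 each). It also moved higher Hox genes (6 to 3), lower oxidative phosphorylation (1 to 2) and lower microRNA and housekeeping genes (0 to 1 each).

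As deposited, dim genes lay slightly higher in CHIR/XAV EpiSCs. Over 5 equal bins of genes ordered by mean level the median differences were 0.08, 0.12, 0.04, -0.13 and -0.04, and after quantile normalization they were -0.01 to 0.03. The share of calls that were higher was 48.0% as deposited, 49.4% after quantile normalization, 42.0% after median centring and 39.8% without the dimmest 40% of genes. Small differences of dim genes, such as those of the germline and Hox lists (6 of 14 Hox genes higher, or 2 higher and 1 lower after quantile normalization), are limited by this and by signal near background. Medium, line and sex cannot be told apart.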

Other observations

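Of the pathways not described above, the Notch, retinoic acid and LIF lists each held a 2-fold difference in both directions, and the hedgehog list held 1, which was higher. Of 12 hedgehog genes 6 were higher and 4 lower in CHIR/XAV EpiSCs, against 19.8% and 21.4% of all genes, or 5 and 2 after quantile normalization. Ptch1, the hedgehog receptor gene and a target of the pathway, was at 8.30, 8.48 and 8.57 against 7.07, 7.0 and 7.11 (1.39, SE 0.08, adjusted p = 5.23e-09 in limma), and the target Gli1 was higher by 0.93. The transducers Gli3 (-0.86) and Gli2 (-0.61) were lower, and Shh, the ligand gene, averaged 4.87 against 4.70 and was not called. Of 17 Notch genes 7 were higher and 7 lower (41.2% each), against 19.8% and 21.4% of all genes. Dll3, a Notch ligand-like gene, was at 6.48, 6.38 and 6.48 against 4.62, 4.88 and 4.79 (1.68, SE 0.09), while the target Hes1 differed by -1.21 and the receptor gene Notch3 by -0.98. Of 15 retinoic acid genes 4 were higher and 4 lower (26.7% each), near the 19.8% and 21.4% of all genes. The binding protein gene Crabp1 was higher by 1.99 and the synthesis enzyme gene Rdh10 (-1.50) and the degrading enzyme gene Cyp26a1 (-1.40) were lower. In LIF signalling, which supports naive cells through STAT3, the kinase gene Jak2 was at 7.06, 7.35 and 7.25 against 8.96, 9.13 and 9.14 (-1.86, SE 0.08) and the receptor subunit gene Il6st differed by -0.93, whereas the targets Pim1 (1.21) and Socs2 (0.83) were higher. The EGF family ligand gene Hbegf differed by -2.04.

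Imprinted genes, which are expressed from the allele of one parent, differed in both directions. Neighbours on chromosome 12, Dlk1 (1.55, SE 0.08), Meg3 (1.00) and Rian (0.90), were higher in CHIR/XAV EpiSCs, and so was Mest on chromosome 6 (1.77). Sgce (-1.63) and Peg10 (-1.02), neighbours elsewhere on chromosome 6, were both lower, as was Igf2 (-1.76). Dlk1 is expressed from the paternal allele and Meg3 and Rian from the maternal one. In all, 7 of 20 imprinted genes were higher and 7 lower, with 2 and 3 at 2-fold.

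The text leaves out chromosome 15, where 300 of 752 genes were higher and 98 lower. Of the 18413 genes outside chromosomes 15, X and Y 19.8% were higher and 21.4% lower. Among the genes of chromosome 15, the simple-epithelial keratin genes Krt18 (-2.72, SE 0.12) and Krt8 (-2.16, SE 0.17) were lower, in the direction of Krt19. The amino acid transporter gene Slc38a4 was at 5.07, 5.28 and 5.13 against 9.70, 9.78 and 9.68 (-4.56), and the meiotic recombinase gene Dmc1 was higher by 2.44. Atf4, also on chromosome 15, was higher by 0.71 (SE 0.07). How far the shift of the chromosome enters these values was not tested. These genes were named after their values were seen.

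With a mean above 7 in one EpiSC group and under 5.5 in the other, 36 genes were high in CHIR/XAV EpiSCs and 17 in FGF2/activin EpiSCs. Of the 36, 16 were above 7 in ESCs as well and 8 under 5.5, and of the 17 these numbers were 4 and 10. Ripk3, Alox15, Pklr and Trpa1 were among the 36 and Edn1 and Serpinb9 among the 17, named after their values were seen. Of 7 housekeeping genes 1 was called, Gusb (beta-glucuronidase), at 6.51, 6.47 and 6.54 against 4.45, 4.59 and 4.53 (1.98, SE 0.06), with ESCs at 6.28. The replication licensing genes Mcm6 (0.58), Mcm3 (0.44) and Mcm2 (0.39) were higher, whereas Ccnb2 (-0.55), a mitotic cyclin gene, was lower, and no gene of 18 in the G1 cell cycle list passed 2-fold. The microRNA genes of the miR-302 cluster, with levels near 10 in both cultures and 4.48 in ESCs for Mir302b, overlapped between the groups, and Mir302b (0.57) and Mir367 (0.60) were called.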
